A study of Mus musculus with 22 samples.

Results

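The genes described here are the retinoic acid receptors Rara, Rarb and Rarg, the retinoid X receptors Rxra, Rxrb and Rxrg, and 4 genes known as targets of retinoic acid, Cyp26a1, Cyp26b1, Dhrs3 and Tgm2. They were taken by name, as all probe sets annotated to these symbols, with no cut-off on measured values. Earlier results of these data were known when they were chosen. The 10 genes had 18 probe sets, out of 18194 named genes and 45101 probe sets on the array. The question was whether receptors and targets differed in level where Trim24 was lost, and where 1 Rara allele was removed as well. Liver RNA of 22 mice was hybridised to one-colour Affymetrix arrays, 1 animal per array. At 5 weeks of age there were 4 Trim24-/- Rara+/-, 4 Trim24-/- and 4 wild-type (WT) animals, and at 14 weeks there were 5 Trim24-/- and 5 WT animals. Per the series' design text, all groups came from intercrosses of Trim24+/- Rara+/- double heterozygotes on a hybrid background, 60% C57BL/6 and 40% 129/Sv, and the Trim24 allele was made by gene disruption. No group carried Rara+/- with intact Trim24, so the removal of 1 Rara allele was seen on the Trim24-/- background alone. Numbers after an animal are those of its title.

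Retinoic acid is made from vitamin A and binds the retinoic acid receptors, which sit on DNA in pairs with a retinoid X receptor. Without ligand the pair holds co-repressors, and with ligand it exchanges them for co-activators, so that the target gene is transcribed. Several targets feed back on the signal: Cyp26a1 and Cyp26b1 encode cytochromes P450 that oxidise retinoic acid, and Dhrs3 encodes an enzyme that reduces retinaldehyde to retinol. Tgm2 encodes tissue transglutaminase, which cross-links proteins, and Rarb is itself a target. In the liver most vitamin A is stored as retinyl ester in stellate cells. Trim24 is a co-regulator of the tripartite motif family that binds the ligand-dependent activation domain of nuclear receptors, and in mouse liver it is known as a brake on Rara.

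The best-known element bound by these receptor pairs is a direct repeat of a half-site with 5 bases between the copies, called DR5. RefSeq promoter windows (GRCm38.p6), which reach from 250 bases before to 50 bases after a gene's start, were searched on both strands. The half-sites searched, in any pairing, were the consensus AGGTCA, its variant AGTTCA with T as the third letter, the variant GGGTCA with G first, and the variant GGTTCA with both. A window was listed for 9 of the 10 genes, all except Tgm2. A DR5 match was found in the windows of Rarb and Cyp26a1, and in 32 of all 32851 windows (0.0974%). Repeats with a spacer of 2 or of 1 base, held by 0.268% and 0.222% of all windows, were found in 0 of the 18 windows of these genes. The 2 matches are shown because the levels of both genes are followed below, with 6 flanking bases on each side and the half-sites in capitals.
Rarb: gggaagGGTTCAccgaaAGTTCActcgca
Cyp26a1: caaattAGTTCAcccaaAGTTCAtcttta
Both are written 5′ to 3′ on the minus strand. The Rarb bases lie at chr14:16575507-16575535, with the element at positions -53 to -37 from the start of the gene. The Cyp26a1 bases lie at chr19:37697770-37697798, with the element at positions -32 to -16 and on the strand opposite to the gene. Of the 17 bases of the element, 15 were identical between the genes. A match describes the sequence and is no evidence of binding in these livers.

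Signals were linear intensities, with a 2% trimmed mean of 100.001 per array as the authors left them. Tests used log2(signal + 16), which understates the changes of dim genes. The median signal lay between 19.7 and 25.9 on the arrays at 14 weeks and between 12.6 and 16.1 on those at 5 weeks, and the number of arrays limits the precision. All 8 hepatocyte markers had group means above 16. Xist read 13.4 to 44.5 at 14 weeks and 948 to 2169 at 5 weeks, and the Y-linked Eif2s3y read 245 to 344 at 14 weeks and 0.350 to 6.59 at 5 weeks, so the older animals have the pattern of males and the younger that of females. WT animal 90 correlated with its own group at 0.9501 to 0.951 and Trim24-/- animal 6 with its own at 0.951 to 0.958, which set them apart at 5 weeks. Some printed changes of Cyp26a1, Tgm2 and Rxra that moved by over 1.5 times without them are given both ways, and others are not. Trim24-/- Rara+/- animals 54, 66 and 82 were closely alike (up to 0.991), and so were Trim24-/- animals 1 and 8 at 5 weeks (0.986). The targeted gene did not check the labels: the brightest Trim24 probe set read 399.8 to 473 in Trim24-/- Rara+/-, 305 to 488 in Trim24-/- and 191 to 459 in WT livers at 5 weeks, and 185 to 336 in Trim24-/- against 143 to 205 in WT livers at 14 weeks. Whether its probes lie inside the disrupted stretch could not be read from the labels.

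In no comparison of genotypes did a probe set of the 10 genes pass the test. With limma and Benjamini-Hochberg adjustment over all 45101 probe sets, 0 of 18 passed for Trim24-/- against WT at 5 weeks, where 0.233% of all probe sets passed. The count was 0 of 18 for Trim24-/- Rara+/- against WT (0.031% of all), 0 of 18 for Trim24-/- Rara+/- against Trim24-/- (0.0643% of all), and 0 of 18 for Trim24-/- against WT at 14 weeks (0.124% of all). At an unadjusted p under 0.05 the counts in the same order were 4, 2, 7 and 5 of 18, beside 8.85%, 6.57%, 9.07% and 7.21% of all probe sets. Several of these probe sets measure Tgm2. With the brightest probe set of each gene the counts were 2, 2, 4 and 2 of 10. Groups that did not overlap were counted too, as higher and lower. They numbered 1 and 0 of 18 for Trim24-/- against WT at 5 weeks (2.22% and 2.5% of all probe sets), and 1 and 1 for Trim24-/- Rara+/- against WT (1.49% and 2.41%). For Trim24-/- Rara+/- against Trim24-/- they numbered 1 and 5 (2.78% and 3.64%), of which 3 are probe sets of Tgm2. For Trim24-/- against WT at 14 weeks they numbered 2 and 0 (0.823% and 0.632%), and the 2 are probe sets of Tgm2. The median log2 change over the 18 probe sets was 0.02, 0.01, 0.06 and 0.04, beside -0.02, -0.03, -0.01 and -0.01 over all probe sets. Over the 10 genes it was -0.03, 0.08, 0.15 and -0.04, beside -0.01, -0.02, -0.01 and 0.00 over all genes. The comparisons at 5 weeks share arrays with each other, so their values are given side by side and are not independent. A missed threshold with 4 or 5 animals a group does not show that the levels were equal, and intervals are given for that reason.

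**Figure D1:**
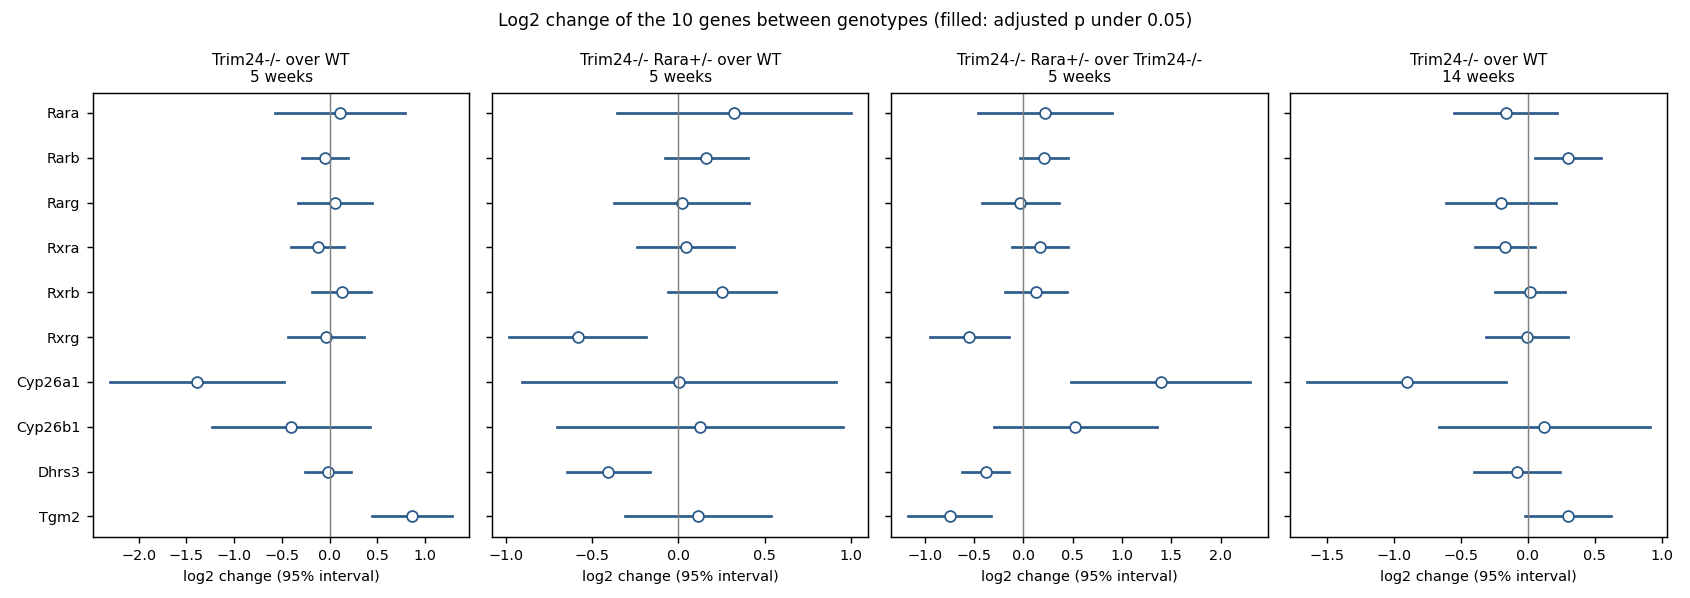
Log2 change of each gene (brightest probe set, log2(signal + 16) scale) with its 95% interval in the 4 comparisons of genotypes; filled circles would mark an adjusted p under 0.05. No circle is filled, and the intervals of Cyp26a1 and Tgm2 lie to opposite sides of 0 in Trim24-/- against WT at 5 weeks.

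Rara, the receptor whose allele was removed, was dim on all arrays at 5 weeks. Its probe set (1450180_a_at) read 19.5, 31.6, 13.3 and 8.57 in Trim24-/- Rara+/-, 18.9, 15.7, 19.0 and 1.23 in Trim24-/-, and 2.74, 27.0, 16.4 and 2.93 in WT livers. The groups overlap, and 6 of the 12 values lie below 16. Between Trim24-/- Rara+/- and Trim24-/- livers the log2 difference was 0.22 ± 0.31 (SE, limma adjusted p = 0.924), with a 95% interval of -0.46 to 0.89, and it was -0.03 without Trim24-/- animal 37. The interval therefore reaches from a loss to a gain at this signal, and the probe set does not check the Rara+/- label. At 14 weeks Rara read 52.6, 27.7, 56.8, 28.1 and 38.3 in Trim24-/- livers, against 45.6, 61.7, 44.97, 48.9 and 33.0 in WT livers. These groups also overlap, with a log2 difference of -0.17 ± 0.18 (adjusted p = 0.906).

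Rarb, the receptor gene that is itself a target of retinoic acid and holds the first of the DR5 matches shown, varied little at 5 weeks. Its signals (1454906_at) were 66.03, 66.8, 65.1 and 69.9 in Trim24-/- Rara+/-, 65.2, 60.8, 54.9 and 44.2 in Trim24-/-, and 48.1, 57.9, 63.7 and 63.99 in WT livers. Every Trim24-/- Rara+/- animal was above every WT animal, while Trim24-/- overlapped both. The log2 differences were 0.16 ± 0.11 for Trim24-/- Rara+/- against WT (adjusted p = 0.860) and -0.05 ± 0.11 for Trim24-/- against WT (adjusted p = 0.951). At 14 weeks Rarb read 36.9, 49.6, 39.4, 46.3 and 38.0 in Trim24-/- livers, against 32.6, 24.1, 31.1, 38.8 and 29.7 in WT livers. One WT animal, at 38.8, lay inside the Trim24-/- range, and the log2 difference was 0.30 ± 0.11 (limma adjusted p = 0.584).

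Rarg, the third retinoic acid receptor, had 2 probe sets that did not move together. The brighter (1419415_a_at) averaged 65.5 ± 7.75 in Trim24-/- Rara+/-, 69.7 ± 25.8 in Trim24-/- and 64.7 ± 12.3 in WT livers at 5 weeks (SD, n = 4 each), and 67.5 ± 19.2 in Trim24-/- against 78.9 ± 16.1 in WT livers at 14 weeks (SD, n = 5 each). The dimmer (1419416_a_at) read 35.4, 48.03, 41.9, 40.0 and 32.0 in Trim24-/- livers at 14 weeks, against 16.2, 24.5, 16.1, 36.1 and 29.3 in WT livers. In these, 1 WT animal lay inside the Trim24-/- range. The log2 difference was 0.48 ± 0.15 for the dimmer (limma adjusted p = 0.467) and -0.20 ± 0.19 for the brighter (adjusted p = 0.886), so the probe sets gave opposite signs.

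Rxra, the retinoid X receptor whose loss in hepatocytes is known to disturb many nuclear receptor pathways, had 2 probe sets with signal and 1 (1430497_at) below 16 on all 22 arrays. The brightest (1454773_at) averaged 987 ± 74.7 in Trim24-/- Rara+/-, 882 ± 131 in Trim24-/- and 962 ± 121 in WT livers at 5 weeks (SD, n = 4 each), and 1121 ± 92.2 in Trim24-/- against 1265 ± 108 in WT livers at 14 weeks (SD, n = 5 each). These means lie within about 1 SD of each other at 5 weeks, and the Trim24-/- difference from WT was -0.13 ± 0.13 at 5 weeks and -0.17 ± 0.10 at 14 weeks on the log2 scale (limma adjusted p = 0.846 and 0.795). Leaving out Trim24-/- animal 6 gave -0.02 at 5 weeks, and leaving out WT animal 90 gave -0.22. Rxrb, the partner found in most tissues, averaged 299 ± 29.4 in Trim24-/- Rara+/-, 274 ± 42.4 in Trim24-/- and 251 ± 47.4 in WT livers at 5 weeks. At 14 weeks it averaged 207 ± 31.6 in Trim24-/- and 204 ± 18.2 in WT livers, and its 4 genotype differences lay between 0.01 and 0.25.

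Rxrg, a retinoid X receptor best known from muscle and brain, was dim and lower in the Trim24-/- Rara+/- arrays. Its probe set (1418782_at) read 31.4, 24.9, 12.1 and 24.3 in Trim24-/- Rara+/-, 45.2, 46.1, 38.0 and 33.1 in Trim24-/-, and 43.0, 49.1, 25.7 and 53.0 in WT livers at 5 weeks. All Trim24-/- Rara+/- values were below all Trim24-/- values, but 1 WT animal lay inside their range. The log2 difference was -0.55 ± 0.18 from Trim24-/- (limma adjusted p = 0.339) and -0.58 ± 0.18 from WT (adjusted p = 0.553). With a pseudocount of 64 the 2 values were -0.27 and -0.29. At 14 weeks Rxrg averaged 32.6 ± 7.84 in Trim24-/- and 32.6 ± 5.76 in WT livers (SD, n = 5 each).

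**Figure D2:**
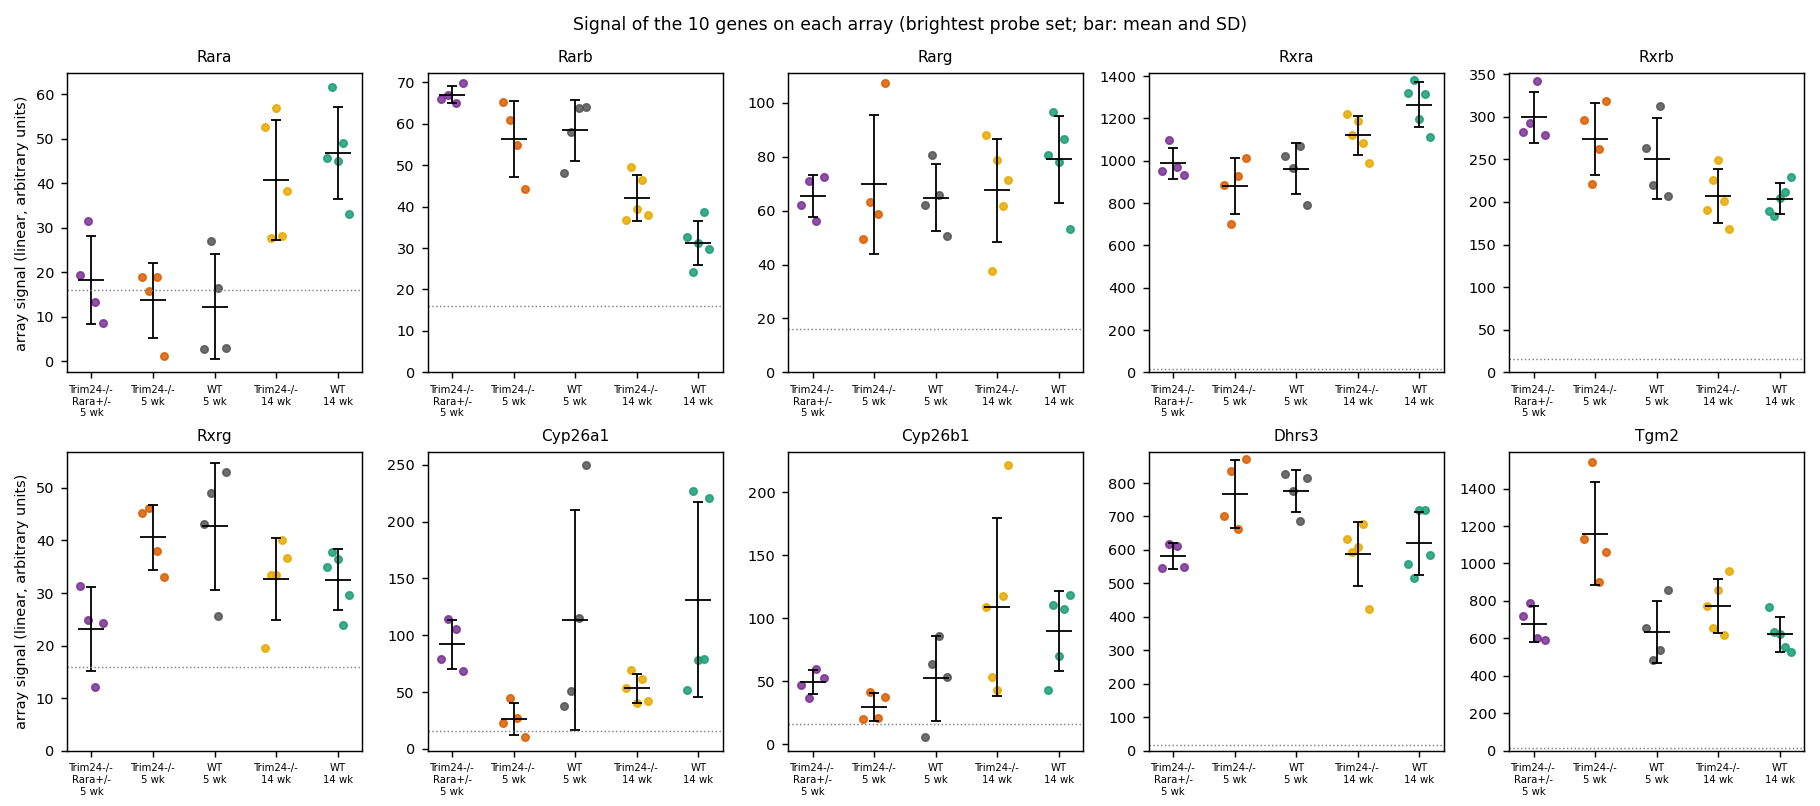
Signal of each gene (brightest probe set, linear scale with its own range per panel) on every array, by group, with the mean and SD; the dotted line is at 16. Among the groups at 5 weeks, Cyp26a1 is low in all 4 Trim24-/- animals, Tgm2 is high in them, and Dhrs3 is low in the 4 Trim24-/- Rara+/- animals.

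Cyp26a1, the gene of the main enzyme that clears retinoic acid and the second with a DR5 match, had the widest range of the genes with clear signal. At 5 weeks its probe set (1419430_at) read 79.2, 114, 105 and 68.8 in Trim24-/- Rara+/-, 22.5, 44.4, 27.6 and 10.4 in Trim24-/-, and 37.9, 51.3, 115 and 249.6 in WT livers. The Trim24-/- values lay below all others but for 1 WT animal at 37.9, and the WT range held all the Trim24-/- Rara+/- values. The log2 difference of Trim24-/- from WT was -1.39 ± 0.42, a fold of 0.382, with a 95% interval of -2.30 to -0.48 (limma adjusted p = 0.278). Without WT animal 90, the highest, the value was -0.95 (adjusted p = 0.293), and without Trim24-/- animal 6 as well it was -1.14 (adjusted p = 0.212). Trim24-/- Rara+/- livers were higher than Trim24-/- livers by 1.39 ± 0.42 (adjusted p = 0.276), with groups that do not overlap. The sign held in all 21 alternatives, but limma adjusted p ran from 0.0845 to 0.9999. Without Trim24-/- animal 6 this difference was 1.59 (adjusted p = 0.252). Between Trim24-/- Rara+/- and WT livers the difference was 0.00 ± 0.42 (adjusted p = 0.999), with an interval of -0.91 to 0.91. Leaving out WT animal 90 gave 0.45, and leaving out WT animal 2 gave -0.32.

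At 14 weeks the Cyp26a1 values were 53.1, 69.5, 40.3, 61.9 and 41.8 in Trim24-/- livers, against 51.4, 227, 78.1, 79.0 and 221 in WT livers. Of the WT animals, 4 of 5 lay above every Trim24-/- animal. The difference was -0.91 ± 0.34 on the log2 scale, with a 95% interval of -1.65 to -0.17 (limma adjusted p = 0.573). The estimate kept its sign in all 21 alternative fits at 5 weeks (-1.85 to -0.84, adjusted p 0.145 to 0.515) and in all 19 at 14 weeks (-1.14 to -0.63, adjusted p 0.382 to 0.756), and passed in 0 of them. At 5 weeks the -1.85 and the -0.84 came with pseudocounts of 1 and 64, so the size depended on the pseudocount at these low signals.

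Cyp26b1, which encodes a related retinoic acid hydroxylase, varied widely within some groups, such as WT at 5 weeks. Its signals (1460011_at) at 5 weeks were 47.2, 36.98, 59.9 and 52.3 in Trim24-/- Rara+/-, 19.6, 41.2, 21.2 and 37.2 in Trim24-/-, and 5.65, 63.97, 85.6 and 53.8 in WT livers. All 3 groups overlap. The log2 difference of Trim24-/- from WT was -0.40 ± 0.38 (limma adjusted p = 0.831), and it ran from -0.89 without WT animal 2 to -0.14 without WT animal 45. At 14 weeks the values were 109, 53.2, 43.2, 118 and 222 in Trim24-/- livers, against 43.1, 111, 70.4, 107 and 118 in WT livers, which overlap throughout.

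Dhrs3, the retinaldehyde reductase gene, was lower in the Trim24-/- Rara+/- animals than in both other groups at 5 weeks. It read (1448390_a_at) 546, 617, 612.9 and 549 in Trim24-/- Rara+/-, 700.1, 836, 662 and 872 in Trim24-/-, and 827, 776, 687 and 815 in WT livers. The Trim24-/- Rara+/- values overlap neither other group. The log2 difference was -0.41 ± 0.11 from WT (limma adjusted p = 0.434) and -0.38 ± 0.11 from Trim24-/- (adjusted p = 0.258). With animals 54, 66 and 82 averaged as 1 replicate, the values were -0.38 and -0.36 (limma adjusted p = 0.9996 and 0.9999). Trim24-/- and WT livers differed by -0.02 ± 0.11, with a 95% interval of -0.26 to 0.22. At 14 weeks Dhrs3 read 633, 594, 609, 677 and 425 in Trim24-/- livers, against 558, 516, 720.5, 719 and 585 in WT livers, which overlap.

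Tgm2 came closest to the threshold. Its brightest probe set (1417500_a_at) read 721, 789, 601 and 589 in Trim24-/- Rara+/-, 1129.8, 1544, 902 and 1060.3 in Trim24-/-, and 653, 486, 536 and 856 in WT livers at 5 weeks. Every Trim24-/- animal was above every animal of the other groups. The log2 difference from WT was 0.86 ± 0.19, a fold of 1.82, with a 95% interval of 0.44 to 1.28 (limma adjusted p = 0.124). It passed in 1 of 21 alternatives, with all 22 arrays fitted together (adjusted p = 0.0341), and over all of them adjusted p ran from 0.0341 to 0.306. Without WT animal 90 and Trim24-/- animal 6, the highest of their groups, the value was 0.87 (adjusted p = 0.0707). Trim24-/- Rara+/- livers differed from Trim24-/- livers by -0.75 ± 0.19 (adjusted p = 0.217) and from WT livers by 0.11 ± 0.19 (adjusted p = 0.955), with an interval of -0.31 to 0.53 for the second, and leaving out WT animal 90 or 44 gave 0.27 or 0.00 for it. For the difference from Trim24-/- livers the sign held in all 21 alternatives, but limma adjusted p ran from 0.110 to 0.993.

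The other Tgm2 probe sets did not all follow the brightest. Against WT at 5 weeks, Trim24-/- livers differed by 0.74 ± 0.24 (1433428_x_at), 0.54 ± 0.28 (1437277_x_at) and 0.53 ± 0.20 (1426004_a_at), but by -0.08 ± 0.37 on 1455900_x_at. In the order of the first 3, the values were 0.55, 0.34 and 0.36 without Trim24-/- animal 6, and 0.97, 0.85 and 0.71 without WT animal 90. That probe set read 658, 331, 178 and 708 in Trim24-/- livers, against 541, 354, 289.6 and 641 in WT livers, a complete overlap. The 5 probe sets with clear signal measure 1 gene and are not separate evidence, and the sixth (1438942_x_at) was below 16 on 21 of 22 arrays. Between Trim24-/- Rara+/- and Trim24-/- livers, 3 of the 5 did not overlap, all lower in Trim24-/- Rara+/-, at -0.75, -0.91 and -0.85, beside 3.64% of all probe sets lower in this way. The other two overlapped, at -0.47 on 1426004_a_at (-0.29 without Trim24-/- animal 6) and 0.02 on 1455900_x_at.

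Tgm2 at 14 weeks read 772, 655, 859, 617 and 959.9 in Trim24-/- livers, against 767, 637, 623, 552 and 528 in WT livers (1417500_a_at). The groups overlap, and the log2 difference was 0.30 ± 0.15 (limma adjusted p = 0.724). On 1433428_x_at the values were 675, 768, 622, 719 and 1121 in Trim24-/- livers, against 535, 565, 563, 497 and 615 in WT livers. Here and on 1437277_x_at the groups did not overlap, with differences of 0.45 ± 0.15 and 0.40 ± 0.14 (adjusted p = 0.496 and 0.547). Without the highest Trim24-/- animal, at 1121, the first was 0.32 (adjusted p = 0.622).

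**Figure D3:**
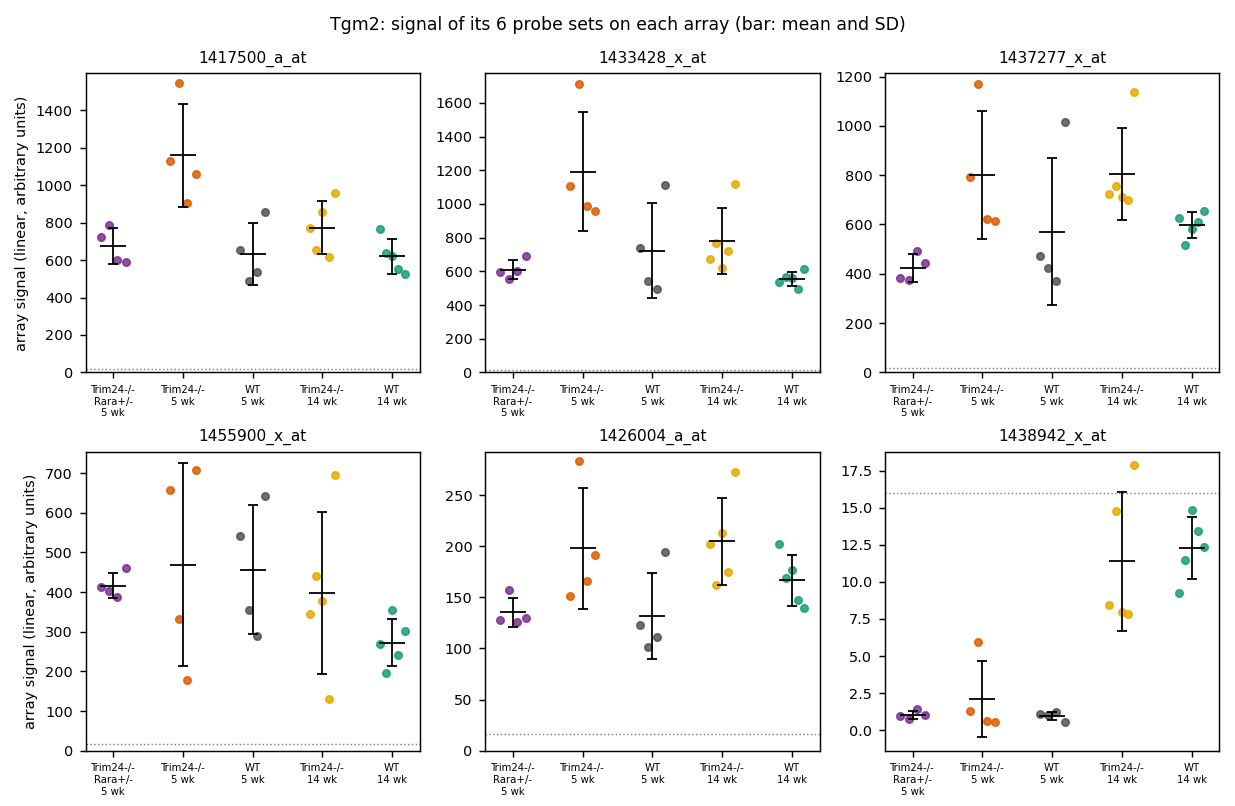
Signal of the 6 Tgm2 probe sets (linear scale with its own range per panel) on every array, by group, with the mean and SD; the dotted line is at 16. Among the groups at 5 weeks, Trim24-/- animals are highest on 1417500_a_at, while on 1455900_x_at they span 178 to 708, over the whole WT range of 289.6 to 641.

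Tgm2 is also expressed by macrophages and endothelial cells and is known to respond to interferon, so markers of these are given beside it. In bulk liver, a change in the number of cells of a type and a change in RNA per cell cannot be told apart. Of 21 interferon-stimulated genes measured, 9 rose in Trim24-/- against WT livers at 5 weeks (limma), beside 0.335% of all genes called, among them Gbp6, Psmb9, Ifi27l2a and Oas1a, and their summed signal was 6947 to 19702 in Trim24-/- against 2656 to 3694 in WT livers. In Trim24-/- Rara+/- livers the sum was 2698 to 4640, and 5 of the 21 fell relative to Trim24-/- livers, beside 0.0824% of all genes called, among them Igtp, Gbp6, Oas3 and Ifi27l2a. At 14 weeks the sum was 2664 to 4308 in Trim24-/- against 1809.7 to 2449 in WT livers, with 0 of 21 called and 15 at an unadjusted p under 0.05, a level that 7.21% of all probe sets reached at 14 weeks. Macrophage markers summed to 5687 to 9674 in Trim24-/- Rara+/-, 6084 to 12018 in Trim24-/- and 4392 to 8465 in WT livers at 5 weeks, and 1 of 12, Mpeg1, rose in Trim24-/- against WT, at 991 ± 263 against 293 ± 63.8 (SD, n = 4 each). Of the 12, 4 had an unadjusted p under 0.05, beside 8.85% of all probe sets, and 11 had estimates above 0, with a median of 0.39. At 14 weeks they summed to 4636 to 8671 in Trim24-/- against 3835 to 5224 in WT livers, with 0 of 12 called, 8 at an unadjusted p under 0.05 and all 12 estimates above 0. Stellate cell markers summed to 4520.2 to 5084 in Trim24-/- Rara+/-, 4048 to 7992 in Trim24-/- and 3853 to 4816 in WT livers, with 0 of 12 called, 2 at an unadjusted p under 0.05 and 10 estimates above 0 for Trim24-/- against WT (median 0.43). At 14 weeks 4 of the 12 had an unadjusted p under 0.05 and 0 were called. Of 5 T and NK cell markers measured, 0 were called and 2 had an unadjusted p under 0.05 for Trim24-/- against WT at 5 weeks (median 0.41), and all 5 had a mean below 16 in WT livers. Endothelial markers summed to 3219 to 3679.6 in Trim24-/- Rara+/-, 2133 to 3150.3 in Trim24-/- and 2502 to 3421 in WT livers, with 0 of 10 called, 4 at an unadjusted p under 0.05 (9.07% of all probe sets) and all 10 estimates above 0 for Trim24-/- Rara+/- against Trim24-/-. In that comparison 2 of 12 macrophage and 4 of 12 stellate estimates were above 0 (medians -0.18 and -0.32). For Trim24-/- against WT at 5 weeks 1 of 10 endothelial estimates was above 0 (median -0.12), and 0 had an unadjusted p under 0.05. None of the macrophage, stellate or endothelial markers had a group mean below 16 at 5 weeks. The part of any of these in the Tgm2, Cyp26a1 or Dhrs3 values was not tested.

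The effect of Trim24 loss was compared between ages in one limma fit of all 22 arrays, in which age cannot be told apart from sex or from a batch of arrays. With adjustment 0 of 18 probe sets differed, beside 0.0177% of all probe sets. At an unadjusted p under 0.05 there were 2 of 18, beside 5.69% of all. On the brightest Tgm2 probe set (1417500_a_at) the difference of effects, 14 weeks minus 5 weeks, was -0.56 ± 0.25 on the log2 scale (adjusted p = 0.845), with a 95% interval of -1.08 to -0.05. The other Tgm2 probe sets with clear signal gave -0.29 (1433428_x_at), -0.14 (1437277_x_at), -0.27 (1426004_a_at) and 0.46 (1455900_x_at). Each of their intervals held 0, so a smaller effect at 14 weeks was not seen throughout the gene. For Rarb the difference of effects was 0.34 ± 0.16 (adjusted p = 0.852), with an interval of 0.02 to 0.67. For Cyp26a1 it was 0.48 ± 0.57 (adjusted p = 0.979), with an interval of -0.69 to 1.66, and leaving out 1 WT animal of 5 weeks gave 0.04 (animal 90) or 0.81 (animal 2). The WT values of Cyp26a1 spread over 51.4 to 227 at 14 weeks and 37.9 to 249.6 at 5 weeks.

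Between WT animals at 14 weeks and at 5 weeks 5 of the 18 probe sets passed, beside 23.3% of all probe sets, a share close to the background. Of these 4 were higher at 14 weeks and 1 lower, beside 17.6% and 5.7% of all, and 6 of 18 had an unadjusted p under 0.05, beside 35.9% of all. In this comparison age cannot be told apart from sex or from a batch of arrays. The median of all probe sets was itself 0.14 higher at 14 weeks, and was -0.00 after quantile normalisation and 0.32 with a pseudocount of 1, the lowest and highest of the alternatives. Rara rose to 46.8 ± 10.3 in WT livers at 14 weeks (SD, n = 5), against 12.3 ± 11.7 at 5 weeks (SD, n = 4). Its log2 difference was 1.23 ± 0.26 (limma adjusted p = 0.00197), and it passed in all 20 alternatives, with sizes of 0.55 and 2.35 at pseudocounts of 64 and 1. Rarb fell to 31.3 ± 5.29 at 14 weeks, against 58.4 ± 7.41 at 5 weeks, by -0.66 ± 0.11 (adjusted p = 0.000278), and passed in all 20. Neither gene's groups overlap, as for 12.3% of all probe sets higher and 4.13% lower at 14 weeks.

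Rxra was higher in WT livers at 14 weeks on both probe sets with signal, by 0.39 ± 0.11 (1454773_at, limma adjusted p = 0.0168) and 0.74 ± 0.20 (1425762_a_at, adjusted p = 0.0120). Without WT animal 90 the first was 0.30 (adjusted p = 0.0745) and no longer passed. The fifth probe set that passed was the dim Tgm2 1438942_x_at, at 12.3 ± 2.10 at 14 weeks against 0.975 ± 0.278 at 5 weeks. Both levels lie below 16, where 37.8% to 45.3% of probe sets read at 14 weeks and 49.9% to 54.4% at 5 weeks. The brightest Tgm2 probe set differed by -0.00 ± 0.18 (adjusted p = 0.989), and by 0.15 without WT animal 90 and Trim24-/- animal 6. Cyp26a1 differed by 0.28 ± 0.40 and Cyp26b1 by 0.78 ± 0.39 (adjusted p = 0.661 and 0.159). Single WT animals of 5 weeks moved both: Cyp26a1 was 0.72 without animal 90 and -0.05 without animal 2, and Cyp26b1 was 0.29 without animal 2.

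**Figure D4:**
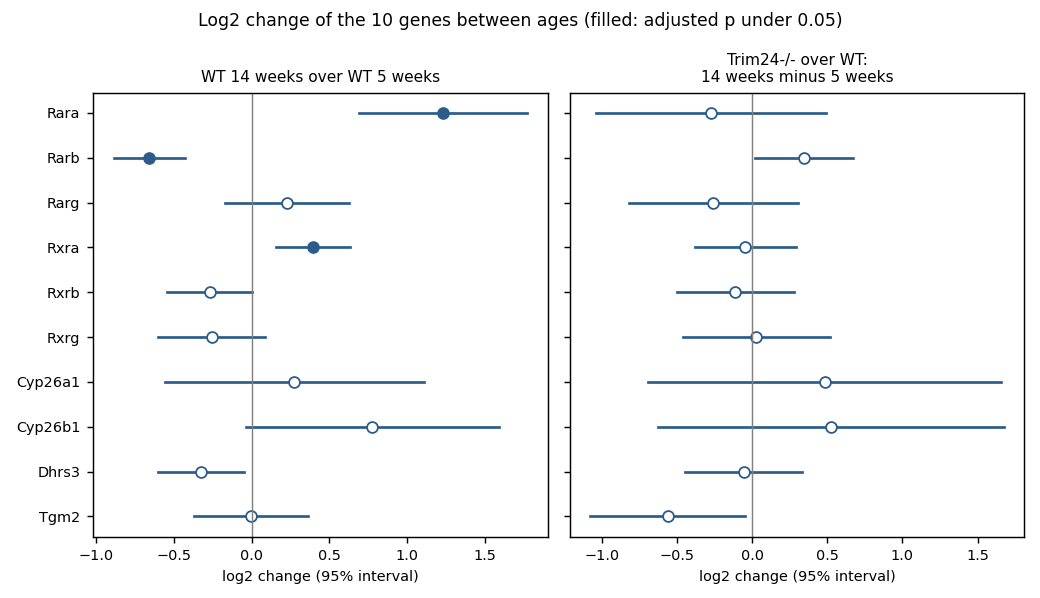
Log2 change of each gene (brightest probe set) with its 95% interval, for WT at 14 weeks over WT at 5 weeks and for the effect of Trim24-/- over WT at 14 weeks minus that at 5 weeks; filled circles have an adjusted p under 0.05. Rara and Rxra are filled above 0 and Rarb below 0 in the first panel, and no circle is filled in the second.

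Other genes of the pathway were described from lists, with the brightest probe set of each gene. Of 22 measured genes known as retinoic acid targets elsewhere, among them Hox genes, Crabp2, Stra6 and Lrat, 0 passed in limma in any comparison of genotypes. In the 4 comparisons in the order above, 0.335%, 0.033%, 0.0824% and 0.181% of all genes passed. Of the 22 targets, 1, 1, 1 and 2 had an unadjusted p under 0.05. Their median log2 change was 0.03, 0.06, -0.01 and -0.02, beside -0.01, -0.02, -0.01 and 0.00 over all genes. At 5 weeks 11 or 12 of the 22 had a group mean below 16, which limits what the list can show. Icam1, an adhesion molecule of leukocyte capture, is named after its values were seen. It read 68.2 to 91.8 in Trim24-/- Rara+/-, 113 to 141 in Trim24-/- and 79.6 to 97.1 in WT livers at 5 weeks, and 70.0 to 187 in Trim24-/- against 38.5 to 64.6 in WT livers at 14 weeks. Trim24-/- lay above every other group of its age, by 0.50 ± 0.11 over WT at 5 weeks and 0.69 ± 0.22 at 14 weeks (adjusted p = 0.112 and 0.463). Icam1 is also known to respond to interferon, whose gene list is given above.

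Of 22 measured genes of retinoid storage, transport and oxidation, which include Crabp2, Stra6 and Lrat again, 0 passed in each comparison of genotypes. In the order above, the shares of all genes that passed were 0.335%, 0.033%, 0.0824% and 0.181%. An unadjusted p under 0.05 was seen for 4, 4, 0 and 1 of the 22, beside 8.85%, 6.57%, 9.07% and 7.21% of all probe sets. Estimates above 0 numbered 6, 8, 10 and 7 of the 22. Their medians were -0.07, -0.09, -0.02 and -0.07, beside -0.01, -0.02, -0.01 and 0.00 over all genes. The 12 other nuclear receptors that pair with a retinoid X receptor also had 0 calls, with 2, 0, 3 and 1 at an unadjusted p under 0.05, and the 15 co-regulators of nuclear receptors had 0 calls, with 1, 3, 1 and 1. Between the WT ages, where 26.7% of all genes passed, the lists had 3 of 22, 4 of 22, 4 of 12 and 3 of 15 calls. No list was tested against that share, and age cannot be told apart here from sex or from a batch of arrays. Among the targets Meis1 and Hoxb4, both transcription factors of patterning, were higher at 14 weeks and Icam1 lower. Meis1 and Hoxb4 were dim, with means of 29.5 and 26.2 at 14 weeks and of 7.11 and 5.01 at 5 weeks, the latter below 16. Rdh10, which oxidises retinol to retinaldehyde, read 306 ± 44.2 at 14 weeks against 472 ± 57.3 at 5 weeks, and fell by -0.60 ± 0.12 (limma adjusted p = 0.00116). Aldh1a1, which oxidises retinaldehyde to retinoic acid, fell by -0.40 ± 0.14 (adjusted p = 0.0436). Adh7 and Rbp2 were higher at 14 weeks, Rbp2 with means of 8.08 at 14 weeks and 3.38 at 5 weeks, both below 16. Of the receptor partners, the thyroid hormone receptors Thrb and Thra and the orphan receptor Nr4a1 were higher and Nr1i3 lower, and of the co-regulators Trim24, Tbl1x and Ncoa1 were lower. For Trim24 this was so on the brightest probe set, at -0.80 (limma adjusted p = 0.00507), and not on the others, at -0.09 and 0.08 (adjusted p = 0.667 and 0.874).

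Variation among animals of a group was compared over 8 of the genes, leaving out the dim Rara and Rxrg, as deviations from group means. Of 56 pairs over both ages, 6 had an unadjusted permutation p under 0.05 for Pearson's r and 0 passed after adjustment over the 56, by Pearson or Spearman. The closest pair was Rxra and Rxrb over the 12 arrays at 5 weeks (r = 0.77, rho = 0.80, permutation p = 0.00328, adjusted p = 0.184), and r was 0.53 without the 2 arrays farthest from the Rxra median. Rarb and Cyp26a1, the genes with the DR5 matches, had r = 0.65 and rho = 0.59 at 5 weeks (permutation p = 0.0225 and 0.0461, adjusted p = 0.340 and 0.565), but r was 0.37 without the 2 farthest arrays. At 14 weeks, over 10 arrays, the same pair had r = -0.36 and rho = -0.33 (permutation p = 0.309 and 0.346, adjusted p = 0.537 and 0.565). Cyp26a1 and Tgm2 had r = 0.57 at 5 weeks and -0.53 at 14 weeks (permutation p = 0.0495 and 0.115, adjusted p = 0.340 for both).

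Cyp26a1 had the widest range over the arrays at 5 weeks, and the genes with the most similar pattern were found among 13410 candidate probe sets with a mean signal of 48 or more. Retsat, the gene of retinol saturase, which reduces a double bond of retinol, came first (r = 0.92, rho = 0.84 over 12 arrays). It read 1243, 1249.5, 1316 and 1106 in Trim24-/- Rara+/-, 645, 966, 633 and 704 in Trim24-/-, and 809, 1269, 1174 and 2165 in WT livers. As with Cyp26a1, WT animal 90 was highest and WT animal 2 lowest of the WT animals, and r was 0.88 without WT animal 90. Dusp3, a dual-specificity phosphatase gene (r = 0.92, rho = 0.93), averaged 253 ± 16.9 in Trim24-/- Rara+/-, 204 ± 17.4 in Trim24-/- and 266 ± 26.9 in WT livers (SD, n = 4 each). Ahctf1, which encodes a nuclear pore protein, had r = 0.91 and rho = 0.96. In all, 62 candidates had r above 0.8. The arrays share their groups, so these correlations describe 12 libraries and carry no test.

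**Figure D5:**
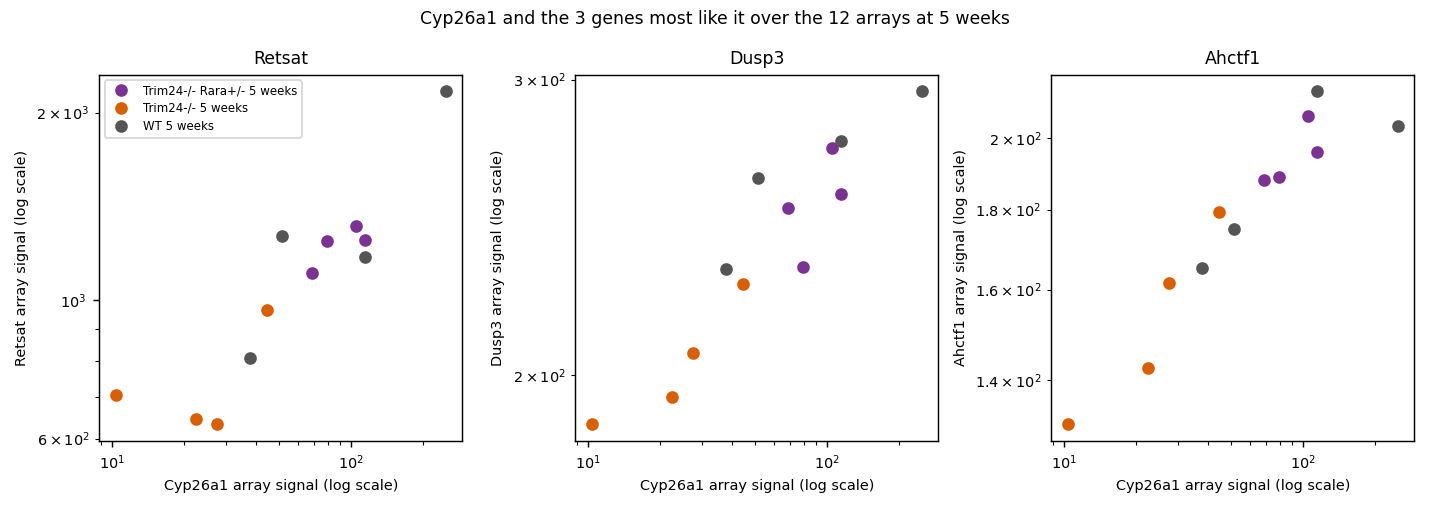
Signal of Retsat, Dusp3 and Ahctf1 against that of Cyp26a1 on the 12 arrays at 5 weeks (both axes log scale), coloured by group. Trim24-/- arrays lie at the lower left, and the WT arrays reach highest on both axes in all 3 panels. The genotypes are not fully apart: WT animal 2 (Cyp26a1 37.9, Retsat 809, Ahctf1 165) lies below Trim24-/- animal 6 (44.4, 966 and 179).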

How the data were processed

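The authors deposited intensity values, linear and 1 per probe set and array, from biotin-labelled probes made with 2 rounds of amplification, per the labels' protocols. The summary software was not named in the labels. A 2% trimmed mean of 100.001 in each column shows that the authors had scaled the arrays. Of 45101 probe sets, 35890 are listed in the platform annotation, 34958 with 1 symbol and 932 with several, and 9211 are not listed. Only probe sets with 1 symbol named genes. No arrays were identical.

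In R 4.3.3, limma 3.58.1 (lmFit, eBayes) was fitted to log2(signal + 16) of all probe sets, with Benjamini-Hochberg adjustment and a threshold of 0.05. The 12 arrays at 5 weeks were fitted together and the 10 at 14 weeks apart. The comparison of ages and the difference of effects used all 22. No covariates were used, and the fit was tested on simulated data. Correlations used 100000 resamples. Other tools were Python 3.11.15, numpy 2.4.6, pandas 2.3.3, scipy 1.17.1 and matplotlib 3.10.9.

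The genes and lists were chosen with earlier results of these data known. Named were all 10 genes with every probe set, Trim24, the sex-linked genes, up to 4 called genes of each list per comparison with the smallest adjusted p, and the 3 genes most like the one with the widest range. Alternatives were pseudocounts of 1 and 64, quantile normalisation, centring, a filter on dim probe sets, 1 probe set per gene, a variance trend, array weights, other sets of arrays in the fit, closely alike animals averaged, and arrays left out.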

Additional observations from a re-analysis of the deposited data

Results flagged for a closer look

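Signals of the 18 probe sets were examined in each of the 5 groups, 90 groups of values in all, and 7 values stood apart from the rest of their group by a gap that chance gives in about 1 in 20 groups. In the Trim24-/- group at 5 weeks, Rara (1450180_a_at) read 1.23 in animal 37, against 15.7 to 19.0 in the others, and the dim Tgm2 1438942_x_at read 5.91 in animal 6, against 0.562 to 1.28. In the Trim24-/- Rara+/- group, the dim Rxra 1430497_at read 6.61 in animal 82, against 1.18 to 1.44, and Tgm2 1426004_a_at read 157 in animal 66, against 126 to 129.7. In the Trim24-/- group at 14 weeks, Rxrg read 19.5 in 1 animal, against 33.3 to 40.1. Another animal of that group had both the lowest Dhrs3 signal, at 425 against 594 to 677, and the highest signal of Tgm2 1437277_x_at, at 1138 against 701 to 757. No explanation of these values was tested.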

How the results depend on the processing

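Over the 4 comparisons of genotypes, 1435 of 1436 values from the alternatives lay on the same side of the threshold as the reported ones. The exception was Tgm2 1417500_a_at in Trim24-/- against WT at 5 weeks, where fitting all 22 arrays together gave 1 call of 18 instead of 0 (adjusted p = 0.0341). Estimates that passed under neither setting changed sign in 81 of the 1436. Leaving out each array in turn gave 0 calls in each of the 4 comparisons. All 512 values of the difference between ages stayed uncalled. Of 350 values for the WT ages, 345 stayed on their side, 4 were newly called and 1, Rxra 1454773_at without WT animal 90, was lost. The count there was 3 of 10 with 1 probe set per gene, instead of 5 of 18, 5 when single arrays were left out, and 7 without WT animal 90 and Trim24-/- animal 6. The number of all probe sets called varied more: 105 (21 to 184) for Trim24-/- against WT at 5 weeks, 14 (10 to 39) for Trim24-/- Rara+/- against WT, 29 (0 to 158) for Trim24-/- Rara+/- against Trim24-/-, 56 (27 to 116) at 14 weeks, 8 (2 to 15) for the difference between ages and 10517 for the WT ages (5147 to 10414 under the alternatives). The 10 and the 5147 came with 1 probe set per gene, which tested 18194 genes and not 45101 probe sets. They are therefore not on the scale of the other counts. The 21 came with Trim24-/- animals 1 and 8 averaged. The count of 29 was 0 with a pseudocount of 1, without Trim24-/- Rara+/- animal 54, 66 or 82, and with these 3 averaged, and the cause was not tested. No paired analysis was possible because the labels give no number shared between groups. Signals near or below 16 limit what those values can show. They include Rara, Rxrg, Rbp2, Meis1, Hoxb4, the dim probe sets of Rxra and Tgm2, and Cyp26a1 in Trim24-/- livers at 5 weeks.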

Other observations

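Bco1, the enzyme that cleaves beta-carotene into retinaldehyde, was chosen here after its values were seen. At 5 weeks it averaged 56.1 ± 6.80 in Trim24-/- Rara+/-, 59.7 ± 5.82 in Trim24-/- and 78.1 ± 7.61 in WT livers (SD, n = 4 each). At 14 weeks it averaged 88.6 ± 26.5 in Trim24-/- and 57.9 ± 8.43 in WT livers (SD, n = 5 each). The log2 difference of Trim24-/- from WT was -0.31 ± 0.10 at 5 weeks and 0.47 ± 0.18 at 14 weeks (limma adjusted p = 0.327 and 0.607), and the difference between the ages was 0.78 ± 0.22 (adjusted p = 0.492). None of these passed, and the ages also differ in sex.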
